A study of Mus musculus with 12 samples.

Results

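Tight junction claudins and polarity genes were followed in the tumour cells of 6 mouse mammary tumours. The 9 genes were Cldn3, Cldn4, Cldn7, Ocln, Tjp1, F11r, Crb3, Rab25 and Epcam, taken by name from the 19369 genes of the count tables, and all 9 were present. They were measured in 19566 cells that the deposited annotation calls tumour cells, out of 60657 cells in the 6 libraries of whole dissociated tumours, after doublets (droplets with more than 1 cell) had been left out. The tumours grew in the mammary fat pad of female BALB/c mice, 9 to 11 weeks old, from the 4T1 line, a mouse model of triple-negative breast cancer. The groups were 5 populations of 4T1 that each descend from 1 cell, Clones E, EM1, EM2, EM3 and M, together with the unselected parental line. The series describes the clones as ranging from epithelial to mesenchymal states, but the labels do not say which clone holds which state. None of the groups carried a named treatment or allele. Each group held 1 tumour, which gave a Total library and a second library after bead enrichment for CD45, which marks leukocytes. With no replicate tumour, no test between groups was possible, and every 95% interval below covers counting error only.

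Tight junctions close the space between neighbouring epithelial cells near their apical side. Claudins and occludin are the membrane proteins of the seal, scaffold proteins such as ZO-1 tie them to actin, and polarity proteins such as Crumbs3 mark the apical side on which the seal forms. Loss of these junctions and of apical polarity is a textbook feature of epithelial-mesenchymal transition, in which repressors of the Snail and Zeb families bind E-box motifs in promoters of epithelial genes, while Grainyhead-like factors support those genes.

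Promoter windows of all 9 genes were found in the RefSeq table (build GRCm38.p6, the assembly that mm10 denotes), 12 windows in all, each from 250 bases before to 50 after an annotated start. Of these, 3 are printed because they show a claudin and an adhesion gene that varied widely between tumours beside the scaffold gene that varied least in CPM. Only the 250 bases before the start are shown, 5′ to 3′ along the gene, and capitals mark the E-box CAGGTG on either strand, which reads CACCTG on the other strand. The windows lie at chr5:134946935-134947184 on the minus strand for Cldn4, at chr17:87635729-87635978 on the plus strand for Epcam, and at chr7:65371245-65371494 on the minus strand for Tjp1, at a start that lies within the span of that gene.
Cldn4: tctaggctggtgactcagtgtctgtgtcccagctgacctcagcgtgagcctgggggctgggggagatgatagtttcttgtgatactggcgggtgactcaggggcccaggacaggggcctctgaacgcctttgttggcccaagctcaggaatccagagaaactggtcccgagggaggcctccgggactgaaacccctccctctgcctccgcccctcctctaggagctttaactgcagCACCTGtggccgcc
Epcam: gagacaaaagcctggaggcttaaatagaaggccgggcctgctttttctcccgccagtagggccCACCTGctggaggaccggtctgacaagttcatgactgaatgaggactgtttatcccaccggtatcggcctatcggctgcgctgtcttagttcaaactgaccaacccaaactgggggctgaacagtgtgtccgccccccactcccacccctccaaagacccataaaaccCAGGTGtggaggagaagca
Tjp1: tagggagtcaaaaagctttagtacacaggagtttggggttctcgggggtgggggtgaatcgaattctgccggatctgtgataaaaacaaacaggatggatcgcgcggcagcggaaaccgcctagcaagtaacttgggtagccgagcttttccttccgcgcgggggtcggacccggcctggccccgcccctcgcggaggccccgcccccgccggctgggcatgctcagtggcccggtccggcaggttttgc

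The Cldn4 window held the motif 14 bases before the start and again 11 bases after it, outside the printed stretch. Epcam held it 187 and 19 bases before the start, and Tjp1 held none. Crb3 had the most, 4 in each of its 2 overlapping windows, and Rab25 had 2, at 64 and 53 bases before the start. Cldn3 had 1, which lay 31 bases after the start, and F11r had 1, at 122 bases before it. The second windows of Cldn7 and of Ocln held 2 each, while the first window of Cldn7 held none and that of Ocln 1. In all, 8 of 9 genes and 10 of 12 windows held a match, and 20.2% of all 32851 promoter windows of the same length did. The motif AACCGGTT, the site of Grainyhead-like factors, was in none of the 12 windows and in 0.146% of all windows. A match shows only that these letters are present, and the files hold no measurement of binding. Cldn4 and Cldn3 also lie near each other on chromosome 5, Cldn4 at 134945123 to 134946934 and Cldn3 at 134986214 to 134987476, with 39.3 kb between them.

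The Clone E tumour differed from the others in more than these genes. It gave 785 tumour cells with a median of 6441 UMIs (unique molecular identifiers, which count captured RNA molecules), where the other tumours gave 1963 to 5936 cells with medians of 9669 to 15260 UMIs. The median mitochondrial share of its tumour cells was 1.79%, and 0.253% to 0.549% in the others. Summed over the annotated class, the fixed epithelial markers (Krt8, Krt18, Krt7, Krt19, Krt14, Cdh1 and Muc1) had 1982 to 6407 CPM (UMIs of a gene per 1000000 UMIs of the class) in tumour cells and 82.9 to 615 CPM in endothelial cells. Endothelial markers had 7.66 to 33.3 CPM in tumour cells and 5352 to 6372 CPM in endothelial cells, and the leukocyte gene Ptprc had 3.88 to 27.0 CPM in tumour cells. The 5 granulocyte markers summed to 1256 CPM in tumour cells of Clone E and 171 to 541 CPM in those of the other tumours, against at least 112036 CPM in granulocytes. The 5 macrophage markers summed to 326 CPM in Clone E and 60.7 to 258 CPM in the others, the 5 dendritic cell markers to 70.0 to 752 CPM with the most in EM1, and the 7 fibroblast markers to 209 to 365 CPM with the most in M. T and NK markers summed to 73.0 CPM in Clone E and 5.86 to 21.9 in the others, and pericyte markers to 32.7 and 2.47 to 8.33. B cell markers summed to 5.28 to 30.3 CPM, with the most in M. The first 16 letters of the cell barcode were shared by 1434 cells of the Clone E and EM3 Total libraries and by 906 of EM1 and EM2, against 85 to 211 in the other 13 pairs of Total libraries. The part of these markers, depth, mitochondrial share and library preparation in the differences below was not tested.

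Markers of host mammary epithelium were carried by some of the cells that held the genes studied, and are given before the results. Of the fixed list of 12, Prlr, Elf5, Pgr, Csn2, Wap, Lalba, Krt5, Trp63 and Oxtr were at most 16.2 CPM in any tumour, and Wap was at 0 in 4 of the 6. The other 3 of the list were not used to mark cells. Csn3 had 101 CPM in M and 7.41 in Clone E, and Esr1 had 42.2 and 33.3. Krt15 had 1.04 and 18.6, near the 0.290 and 16.2 of Prlr, so its level does not set it apart from the 9 used. At least 1 UMI of these 9 genes, a subset chosen after their levels had been seen, was found in 191 tumour cells of the parental tumour (3.22%), 69 of M, 59 of EM2 (1.78%), 54 of Clone E (6.88%), 19 of EM3 and 10 of EM1. In EM2, those 59 of 3319 cells held 69.4% of all Cldn4 UMIs, 77.8% of the Cldn3 UMIs and 81.7% of the Crb3 UMIs. Levels in EM2 of the genes other than Tjp1 and F11r are therefore given with and without them. Whether these cells descend from the host was not tested.

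Cldn3, Cldn4 and Cldn7, claudins that form the strands of the seal, were highest in the Clone E tumour. Cldn4 reached 4631 CPM in Clone E (4573 to 4690), against 584 in EM1, 294 in the parental tumour, 104 in M, 89.4 in EM2 and 12.8 (11.6 to 14.2) in EM3. No neighbours in that order had overlapping intervals, and Clone E was 7.93-fold above EM1 and 361-fold above EM3. Without the cells that carried a mammary marker, Cldn4 in EM2 was 27.9 CPM (26.4 to 29.4) and no other tumour moved by more than 1.07-fold. Cldn3 stood at 386 CPM in Clone E, against 81.7 in EM1, 45.8 in the parental tumour, 6.95 in EM2, 1.28 in M and 0.516 (0.289 to 0.850) in EM3. Its order matched that of Cldn4 except for M and EM2, and its value in EM2 was 1.57 CPM (1.24 to 1.96) without the marker-carrying cells. The M value was 0.621 CPM without them, and granulocytes of the same library had 0.518 CPM (0.107 to 1.51), so that Cldn3 in M was not distinguishable from the level in cells that should lack it. For Cldn7 the level was 436 CPM in Clone E against 80.4 in EM1, 52.7 in the parental tumour, 13.4 in EM2, 4.63 in M and 3.51 in EM3, and the intervals of M and EM3 overlapped. Cldn7 in EM2 was 9.44 CPM (8.60 to 10.3) without the marker-carrying cells.

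Occludin, another membrane protein of the seal, followed with a narrower span. Ocln stood at 116 CPM in Clone E (107 to 126), against 28.0 in EM1, 11.2 in the parental tumour, 10.9 in M, 8.45 in EM2 and 3.16 (2.55 to 3.88) in EM3. The parental tumour and M did not differ beyond counting error, and Ocln in EM2 was 6.90 CPM (6.19 to 7.67) without the marker-carrying cells. Clone E was 4.15-fold above EM1 and 36.8-fold above EM3. In every tumour the tumour cells had more Ocln than granulocytes, which should lack it. In the parental tumour, however, granulocytes had 5.83 CPM on 5 UMIs, with an interval that held the 11.2 CPM of tumour cells.

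Epcam, an adhesion molecule that binds Cldn7, had 1578 CPM (1544 to 1612) in Clone E, 254 in the parental tumour, 140 in EM1, 120 in EM2, 49.4 in M and 4.71 (3.95 to 5.57) in EM3. All 6 intervals were apart. EM1 and EM2 were within 1.17-fold of each other in Epcam, while Cldn3, Cldn4 and Cldn7 were 11.8-fold, 6.54-fold and 5.99-fold lower in EM2 than in EM1, and 51.3-fold, 20.4-fold and 8.46-fold lower once the marker-carrying cells of both were left out. Without the marker-carrying cells Epcam in EM2 was 110 CPM (107 to 113). Granulocytes of EM2, which should lack these claudins, had 1.30 CPM of Cldn3 (1 UMI), 18.2 of Cldn4 (14 UMIs) and 3.89 of Cldn7 (3 UMIs). Once the marker-carrying cells were left out, the levels of these claudins in EM2 tumour cells lay within the counting intervals of those values. Clone M was 10.5-fold above EM3 in Epcam and 8.15-fold above it in Cldn4, but 1.32-fold in Cldn7.

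The apical polarity genes were high in Clone E and at most 3.02 CPM in the other tumours. Crb3, the Crumbs protein of most epithelia, had 41.8 CPM (36.5 to 47.7) in Clone E, 1.50 in the parental tumour, 1.40 in EM2, 0.960 in EM1, 0.245 in M and 2 UMIs in all of EM3 (0.0687 CPM, 0.00832 to 0.248). Without the marker-carrying cells EM2 had 0.262 CPM (0.139 to 0.447), 5.37-fold less, and the parental tumour 0.981 CPM (0.779 to 1.22), 1.53-fold less. M then had 0.109 CPM (0.0437 to 0.224), 2.25-fold less, and EM1 0.704 CPM (0.424 to 1.10), 1.36-fold less. Rab25, a small GTPase of apical recycling vesicles, had 59.9 CPM (53.4 to 66.8) in Clone E, 3.02 in the parental tumour, 1.62 in EM3, 1.39 in EM2, 0.550 in M and 0.443 in EM1, and EM2 had 0.906 CPM (0.661 to 1.21) without the marker-carrying cells. Granulocytes of the same libraries, which should lack Rab25, had 8.97 CPM in Clone E and 5.83 (1.89 to 13.6) in the parental tumour, with 1.44 (0.296 to 4.20) in EM3 and 0.518 in M, and no UMI in EM1 and EM2. Rab25 in tumour cells of the parental tumour, EM3 and M was thus not above the level in granulocytes beyond counting error. Those granulocyte levels rest on only 5, 3 and 3 UMIs. Macrophages had a median of 0.727 CPM of Rab25 over the 6 Total libraries and at most 3.34 CPM. Clone E stood 6.68-fold above its granulocytes.

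Tjp1 and F11r did not follow the claudins. Tjp1, which encodes the scaffold ZO-1, had 232 CPM (229 to 236) in M, 178 (174 to 183) in EM3, 152 in EM1, 138 (128 to 149) in Clone E, 134 in EM2 and 128 in the parental tumour. The highest and lowest tumours were 1.81-fold apart, and M and EM3, with the least Cldn3 and Cldn7, had the most Tjp1. Clone E overlapped with both of its neighbours in the order. F11r, the junctional adhesion molecule JAM-A, stood at 386 CPM in Clone E (369 to 403), against 292 in EM1, 235 in the parental tumour, 225 in EM2, 193 in EM3 and 188 in M. That order resembled the order of the claudins, but the range was 2.05-fold, and EM3 and M were not apart.

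**Figure D1:**
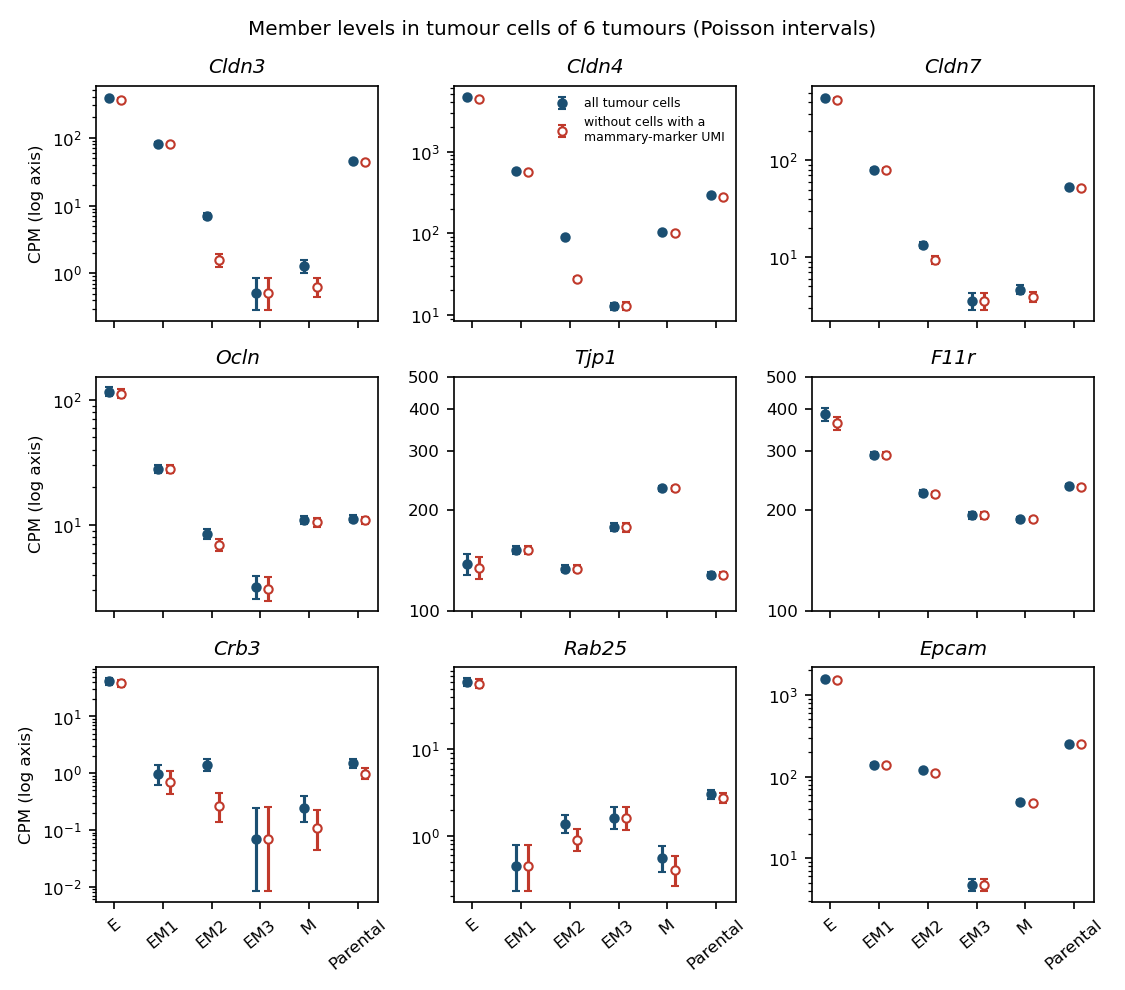
CPM on log axes with 95% Poisson intervals for each of the 9 genes (panels) in the tumour cells of the 6 tumours (x axis), with all annotated tumour cells (filled) and without cells that hold a UMI of 9 mammary markers (open). Clone E is highest in 8 panels; the filled and open points are farthest apart in EM2 for Crb3, Cldn3 and Cldn4, and Tjp1 is highest in M.

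For a comparison with all genes, the log2 ratio of (CPM + 10) was taken, and a gene counted as past the fold at an absolute value of 1. Of the 9 genes, 8 reached the mean of 10 CPM over the 6 tumours that defined the 8934 genes tested. Crb3 did not reach it and is counted below all the same, and Rab25 reached it through Clone E alone. Against Clone E, 7 of the 9 were lower past the fold in EM1, where 4.59% of tested genes were lower and 2.94% higher. The count was also 7 in EM2, where 5.63% of tested genes were lower and 2.87% higher, in EM3 (5.81% and 2.92%) and in the parental tumour (5.74% and 2.14%). It was 8 in M (6.95% and 4.97%), and none of the 9 was higher past the fold, except that Tjp1 in M was under TMM scaling, one of the alternative scalings given below. The 5 comparisons share the Clone E tumour and are not independent. The eighth gene in M was F11r, which lay on the limit with an interval of −1.07 to −0.93 and lay inside it under 7 of 9 alternative settings. In EM3 it had −0.96 (−1.04 to −0.89), just inside.

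The lowest ratio against Clone E was that of Cldn4 in EM3, at −7.67 (−7.75 to −7.58). Epcam followed at −6.75 in EM3, and Cldn3 had −5.23 there and −5.13 in M. The median of the 9 genes was −3.26 in EM3, −2.78 in EM2, −2.73 in M, −2.57 in the parental tumour and −2.24 in EM1, and the medians of all tested genes lay between −0.01 and 0.07. Scaling with TMM factors moved the median of all genes to between 0.27 and 0.43. Of the genes past the fold against Clone E, 58.3% to 72.9% were lower under CPM, 17.1% to 32.0% under TMM and 31.1% to 44.0% under median-of-ratios scaling. Relative to the median under each of 3 scalings, the 7 genes other than Tjp1 and F11r stayed between −7.66 and −1.71. Against Clone E, Tjp1 ranged from −0.10 in the parental tumour to 0.71 in M; its sign turned in EM2 and the parental tumour, and that of F11r in EM1, under other scalings. Relative to the median F11r stayed between −1.07 and −0.31 and Tjp1 between −0.10 and 0.70 under all 3 scalings.

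**Figure D2:**
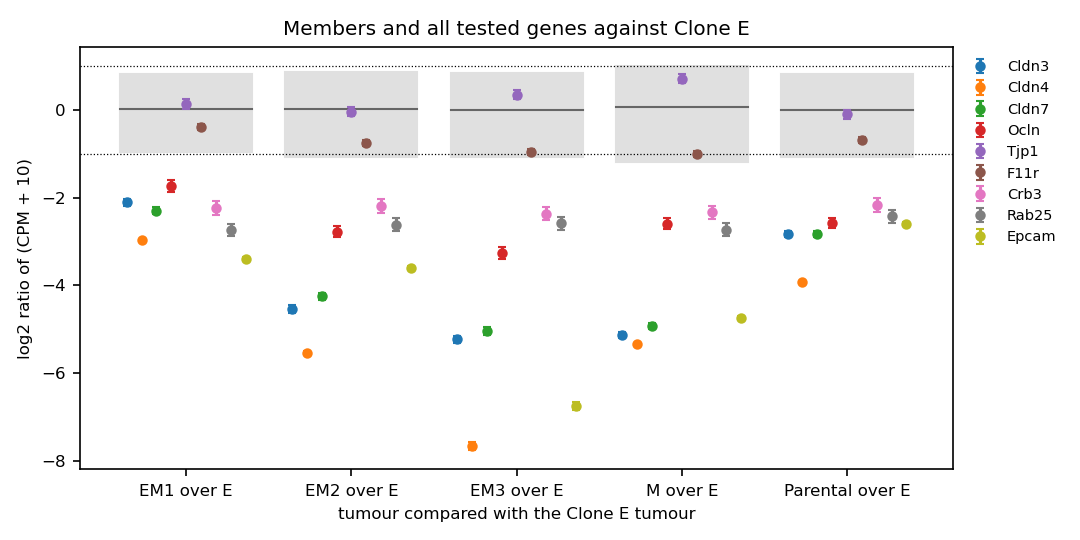
Log2 ratio of (CPM + 10) of the 9 genes (coloured points, 95% counting intervals) in 5 tumours against Clone E; grey boxes span the 5th to 95th percentile of all tested genes, grey lines their median and dotted lines the fold limit. Cldn3, Cldn4, Cldn7, Ocln, Crb3, Rab25 and Epcam lie below the grey boxes in all 5 comparisons, and Tjp1 lies within them.

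Among the tumours with less of these genes, M had 2 of the 9 higher past the fold than EM3, Cldn4 at 2.33 (2.24 to 2.41) and Epcam at 2.01 (1.92 to 2.10), where 1.89% of tested genes were higher and 1.93% lower. EM2 had 4 lower than EM1, where 1.44% of tested genes were lower and 0.963% higher: Cldn4 at −2.58, Cldn3 at −2.44, Cldn7 at −1.95 and Ocln at −1.04 (−1.14 to −0.94). Leaving out the marker-carrying cells, these were −3.93, −2.97, −2.21 and −1.16. The 4 genes encode membrane proteins of the seal, and Epcam in the same comparison was −0.21. Of related membrane proteins, Cldn12 at −0.14 and Marveld2 at −0.40, with 14.0 CPM in EM1 and 8.17 in EM2, did not pass. Marveld3 had −0.47, with 8.46 CPM (7.40 to 9.63) in EM1 and 3.30 (2.82 to 3.85) in EM2. With 10 CPM added, Marveld3 could not have passed at any level in EM2, so its ratio does not set it apart from the 4 genes. Of the 28 tested genes of the junction list described next, 1 was lower past the fold. Between the parental tumour and EM1 none of the 9 passed, where 1.9% of tested genes were lower and 0.974% higher. Cldn4 came closest, at −0.97, and Epcam was on the other side, at 0.81 (0.76 to 0.86).

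Other tight junction and polarity genes were read from a list of 62, of which 60 were in the tables and 28 were tested. Past the fold against Clone E, 11 of the 28 were lower in EM3, 10 each in EM2 and M, and 9 each in EM1 and the parental tumour, where 4.59% to 6.95% of all tested genes were lower. In M, 1 was higher, where 4.97% of all tested genes were. Their medians ran from −0.36 in EM1 to −0.61 in EM3. By the fixed rule, among the tested genes the lowest in M and EM3 included St14, Myo5b, Marveld3 and Cgn. Myo5b and Marveld3, as Rab25, reached the mean of 10 CPM through Clone E alone. Their low ratios follow in part from that filter. St14, the membrane protease matriptase, had 409 CPM in Clone E, 116 in the parental tumour, 103 in EM2, 95.4 in EM1, 34.5 in EM3 and 29.1 in M. Myo5b, a motor of the recycling vesicles on which Rab25 sits, had 73.3 CPM in Clone E and 0.596 to 5.26 CPM elsewhere.

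Marveld3, a membrane protein related to occludin, had 54.9 CPM in Clone E and at most 8.46 CPM in the other 5 tumours. Cgn, the junction plaque protein cingulin, had 81.1 CPM in Clone E, 16.9 in the parental tumour and 1.51 in EM3. Among the 28 tested genes, Lin7c, Mpdz and Cldnd1 were in the top 4 ratios of both M and EM3, Cldn12 in that of M and Magi3 in that of EM3. Lin7c, a PDZ scaffold of the Crumbs complex, had 273 CPM in M against 131 in Clone E, a log2 ratio of 1.00, on the limit. Mpdz, a multi-PDZ scaffold of tight junctions, had 27.1 CPM in M against 13.5 in Clone E, a ratio of 0.66. Magi3, another such scaffold, had 30.2 CPM in both Clone E and M and 39.1 CPM in EM3. Cldnd1 had 144 CPM in Clone E and 257 in EM3, and Cldn12 had 58.5 CPM in M, 48.8 in Clone E and 42.0 in EM3. Lin7c, Mpdz and Magi3 are scaffolds with PDZ domains, as Tjp1 is.

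The genes nearest to the mean profile of the 9 were found by the root mean square distance between centred log2(CPM + 10) profiles over the 6 tumours. C3, complement component C3, was nearest, at a distance of 0.343, and the keratin Krt17 had 0.378. The desmosomal cadherin Dsg2 was also among the 10, with 121 CPM in Clone E against 51.6 in EM1, 18.0 in the parental tumour, 5.20 in EM2, 1.10 in EM3 and 0.719 in M. Fgfbp1, Cdcp1, Kcnk1, Tnc, Cadm4 and Fxyd3 were among them too. The median distance over 8898 candidate genes was 1.21. Among the 9 genes themselves, Tjp1 at 1.35 and Cldn4 at 1.24 lay farther from the mean profile than that, so it does not stand for each of them. These profiles have 6 points from 6 libraries, and Clone E sets most of their shape.

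In single cells, each tumour cell was thinned to 2000 UMIs, and 36 to 232 shallower cells per tumour were left out. Clone E had a UMI of Cldn4 in 91.1% of its cells (655 of 719), against 40.8% in EM1, 23.3% in the parental tumour, 9.76% in M, 3.91% in EM2 and 1.71% in EM3. T and NK cells thinned alike, which should lack Cldn4, had one in 25.4% of cells in the tumour of Clone E against 7.89% in EM1, 7.23% in the parental tumour, 1.67% in M, 1.03% in EM2 (2 of 194) and 0.177% in EM3. Without the marker-carrying cells 3.30% of EM2 cells (2.71% to 3.98%) held Cldn4, which overlapped with the interval of those 2 of 194 cells (0.125% to 3.67%) but lay above macrophages thinned alike, with 19 of 3004 (0.632%, 0.381% to 0.986%). M had 9.64% of cells without them. In CPM, EM2 without these cells had 27.9 and its granulocytes 18.2 (9.93 to 30.5), at medians of 14765 and 855 UMIs per cell. Unthinned shares are given in the closing section.

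Epcam was found in 85.1% of thinned tumour cells of Clone E, 28.8% of the parental tumour, 19.8% of EM1, 19.4% of EM2, 7.73% of M and 0.882% of EM3 (17 of 1927). The share in T and NK cells was 13.7% in Clone E, 6.02% in the parental tumour, 5.15% in EM2 and 0.709% in EM3 (0.194% to 1.81%). The Epcam share in EM3 tumour cells overlapped with that of T and NK cells, was above that of macrophages (9 of 3542, 0.254%), and no UMI was found in 278 granulocytes. EM1 and EM2 had nearly the same share of Epcam-positive cells, although 40.8% and 3.91% of their cells held Cldn4. Crb3 was found in 8.34% of Clone E cells, at most 0.397% elsewhere, and in 0 of 1927 EM3 cells. Tjp1 was found in 22.5% to 36.8% of cells in every tumour and F11r in 30.9% to 48.4%.

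The variance of UMIs over cells divided by the mean was highest for Cldn4 in every tumour. This ratio depends on the mean, which for Cldn4 ran from 0.0311 UMIs in EM3 to 8.81 in Clone E. It therefore does not rank the spread between genes or tumours with unlike means. The variance of Cldn4 divided by its mean, which is 1 for random counting, was 14.7 in Clone E, 8.04 in EM1, 8.01 in the parental tumour, 5.55 in M, 32.7 in EM2 and 2.67 in EM3. Without the marker-carrying cells it was 6.49 in EM2 and 10.9 in Clone E. For Epcam the ratio was 2.00 to 2.43 in all tumours but EM3, where it was 1.10; without the marker-carrying cells it was 1.51 in M, 1.63 in EM2 and 1.90 in EM1. Tjp1 and F11r stayed between 0.988 and 1.33 in all 6 tumours, and so did the low genes Ocln and Rab25.

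In the parental tumour, cells with Cldn4 more often held Epcam, Cldn3 and Cldn7 than cells without it, at an equal number of UMIs. There 51.0% of the 1330 cells with Cldn4 held Epcam, and 22.1% of the 4374 cells without it. For Cldn3 these shares were 16.5% and 4.76%, and for Cldn7 15.9% and 6.08%. Without the marker-carrying cells, Rab25 was there in 24 of 1280 cells with Cldn4 (1.20% to 2.78%) and in 12 of 4242 cells without it (0.146% to 0.494%). In M, Epcam was in 19.6% of cells with Cldn4 and 6.45% of those without, and without the marker-carrying cells the values were 18.8% and 6.41%. In EM2, Cldn3 was in 14.8% of the 128 cells with Cldn4 and 0.127% of the others, but in 2 of 106 and 4 of 3107 cells once the marker-carrying cells were left out. For Epcam in EM2 these shares were 32.1% and 18.3%. In EM3, without the marker-carrying cells, Epcam was in 3 of 33 cells with Cldn4 (9.09%, 1.92% to 24.3%) and 0.747% of the others, and in Clone E the intervals of Cldn7 overlapped, at 46.8% and 40.0%. Tjp1 was found in 24.4% of cells with Cldn4 and 22.0% of those without in the parental tumour, in 24.6% and 25.1% in EM1, and, without the marker-carrying cells, in 25.2% and 11.7% (7 of 60) in Clone E.

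Cells with a UMI of at least 3 of the 9 genes after thinning, called junction-rich here, made up 80.5% of Clone E (579 of 719 cells; 77.4% to 83.4%), 20.6% of EM1, 14.7% of the parental tumour, 3.70% of EM2, 3.55% of M and 0.675% of EM3 (13 of 1927). The class is a range of a count and not a cell type, and many cells lay near its limit: 104 cells of Clone E and 1226 of the parental tumour held exactly 2 of the genes. Since Tjp1 and F11r are detected everywhere, the share was also taken over the other 7 genes. At least 3 of these were found in 66.5% of Clone E cells, 6.70% of EM1, 5.56% of the parental tumour, 0.917% of EM2, 0.237% of M and 0% of EM3, where 0 of 1927 cells, by a limit of 3 cells, allows up to 0.156%. No cell of Clone E held all 9, and 1 cell of the parental tumour did.

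**Figure D3:**
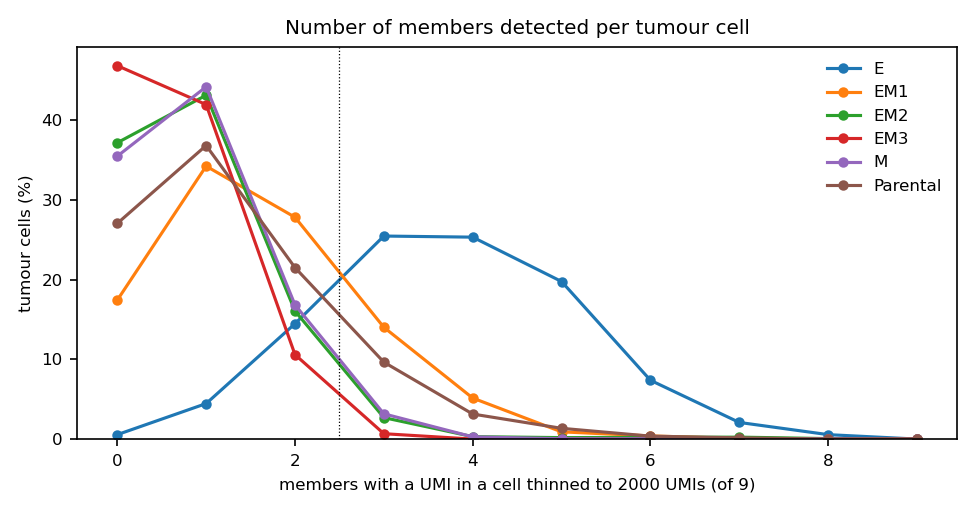
Share of tumour cells (y axis) by the number of the 9 genes with a UMI after thinning to 2000 UMIs (x axis), 1 line per tumour; the dotted line marks the limit for junction-rich cells. The line of Clone E is highest at 3 and 4 genes and those of the other tumours at 0 or 1.

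Genes that had no part in choosing the junction-rich cells were set beside them, without the marker-carrying cells. Cdh1, the adherens junction protein E-cadherin, had 185 CPM (165 to 208) in junction-rich cells of the parental tumour and 30.8 (27.4 to 34.6) in the rest, 6.01-fold apart. The difference was 5.08-fold in EM1, 7.15-fold in EM2, 5.82-fold in M, on 6 UMIs, and 1.54-fold in Clone E. With the marker-carrying cells it was 17.6-fold in EM2 and 19.5-fold in M. Krt14, a basal keratin, had 213 and 20.3 CPM in the parental tumour, 10.5-fold apart, and 66.5 and 19.7 CPM in EM1. In EM2 it had 62.5 and 9.79 CPM, on 12 UMIs in the junction-rich cells.

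In the parental tumour the splicing regulator Esrp1 was 3.42-fold, the laminin chain Lama3 4.01-fold and the desmosomal plaque gene Dsp 2.19-fold higher in junction-rich cells. Lama3 was lower in those of Clone E, with 550 CPM (507 to 597) against 871 (762 to 991) in the rest. In Clone E with the marker-carrying cells kept, Esrp1 was 1.11-fold and Dsp 1.01-fold the level of the rest, with overlapping intervals. Among the mesenchymal genes, Vim, the intermediate filament vimentin, had 10749 CPM in junction-rich cells of the parental tumour and 12973 in the rest, and 12883 and 13547 in EM1. Serpine2, a secreted protease inhibitor, was 335 and 797 CPM in the parental tumour, and Twist1, a transcription factor of mesenchymal cells, 224 and 306 CPM. Fn1, fibronectin, went the other way there, with 12326 and 10539 CPM. Sparc, another of these genes, had 467 and 459 CPM there with the marker-carrying cells kept, with overlapping intervals. In Clone E, Vim was 4101 and 4042 CPM, with overlapping intervals. Before thinning, and with the marker-carrying cells, the junction-rich cells of Clone E had a median of 7188 UMIs and a mitochondrial share of 1.42%, and the rest 5746 UMIs and 2.76%. In the other 5 tumours the junction-rich cells had fewer UMIs than the rest. The part of these differences in the values above was not tested. These are cells of 1 tumour each and not replicates.

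**Figure D4:**
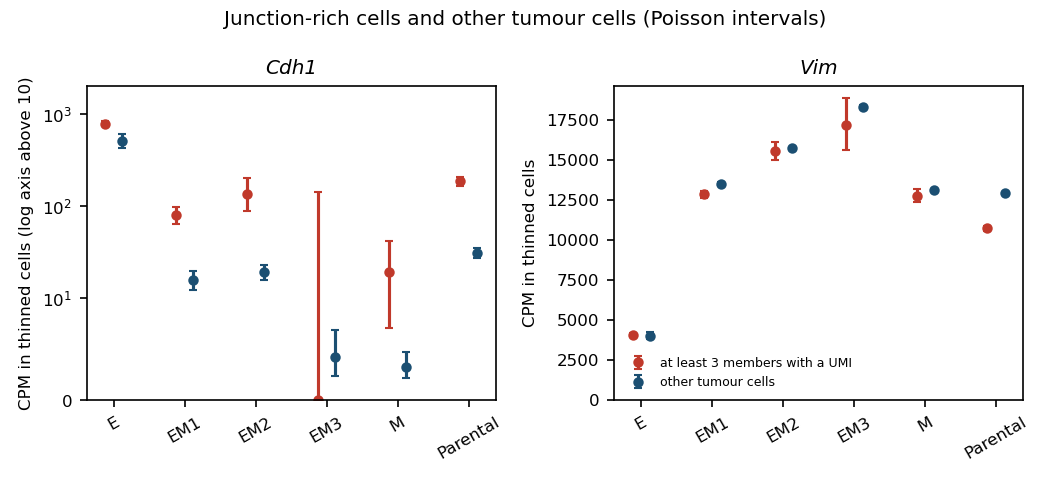
CPM of Cdh1 (left, log axis above 10) and Vim (right) in junction-rich cells (red) and the other tumour cells (blue) of each tumour, thinned to 2000 UMIs and without marker-carrying cells, with 95% Poisson intervals. Cdh1 is higher in junction-rich cells of Clone E, EM1, EM2, M and the parental tumour, EM3 has only 13 such cells, and Vim in them is 0.829-fold to 1.01-fold its level in the rest.

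Endothelial cells build tight junctions of their own, and 2 of the 9 genes were higher in them than in tumour cells. F11r had 754 CPM in the endothelial cells of Clone E and 754 to 921 CPM over the 6 tumours, 1.95-fold to 4.31-fold above the tumour cells of the same tumour. Tjp1 had 234 to 302 CPM, 1.11-fold to 2.36-fold above, and the lowest fold, in M with 54 endothelial cells, was within counting error. The endothelial levels, from 37 to 147 cells per tumour, spanned 1.22-fold for F11r and 1.29-fold for Tjp1 over the 6 tumours, while tumour cells spanned 2.05-fold and 1.81-fold. Fixed list genes of vessels marked the class: Cldn5, the main claudin of endothelium, had 395 to 1329 CPM in endothelial cells and at most 0.731 CPM in tumour cells, and Esam, an endothelial adhesion molecule, had 879 to 1121 and at most 35.0 CPM. Crb3 had no UMI in endothelial cells of any tumour.

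Cldn4 in granulocytes was also highest in Clone E and lowest in EM3. Granulocytes of the Total libraries had 280 CPM of Cldn4 in Clone E, 98.0 in the parental tumour, 80.7 in EM1, 18.2 in EM2, 11.7 in M and 0.479 (1 UMI) in EM3. Unlike in tumour cells, the parental tumour stood above EM1 (84 and 44 UMIs) and EM2 above M (14 and 68 UMIs). The intervals of both pairs overlapped. Epcam did not follow the tumour cells in every class: dendritic cells of the Total libraries had 21.6 to 68.7 CPM and T and NK cells at least 9.18, more than the 4.71 CPM of EM3 tumour cells. Cldn4 had 1.93 to 109 CPM in endothelial cells and 2.46 to 249 CPM in fibroblasts. In the CD45 libraries, made after enrichment, the median over the 6 tumours was at most 0.610 CPM of Cldn4 in any class, and granulocytes had at most 2.10 CPM. Fibroblasts had 38.7 to 67.5 CPM of Tjp1 and macrophages 4.68 to 7.72.

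Some leukocytes carried members of the group in the CD45 libraries, where little tumour RNA was present. Epcam had 8.43 to 77.4 CPM in B cells, with 77.4 (57.4 to 102) in Clone E and 68.7 (55.3 to 84.4) in EM1 and 8.43 (2.74 to 19.7) in EM2. It had 12.8 to 45.3 CPM in dendritic cells and at most 2.07 CPM in granulocytes. F11r had 28.6 to 71.8 CPM in macrophages and 32.1 to 44.3 in dendritic cells, and a median of 0.843 CPM in B cells. Crb3 had a median of 7.24 CPM in B cells but ran from 0 to 12.3 CPM over the 6 tumours. That median was above its level in tumour cells of every tumour but Clone E, but no counting interval was put on it. Tjp1 had medians of at most 1.93 CPM in these classes.

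**Figure D5:**
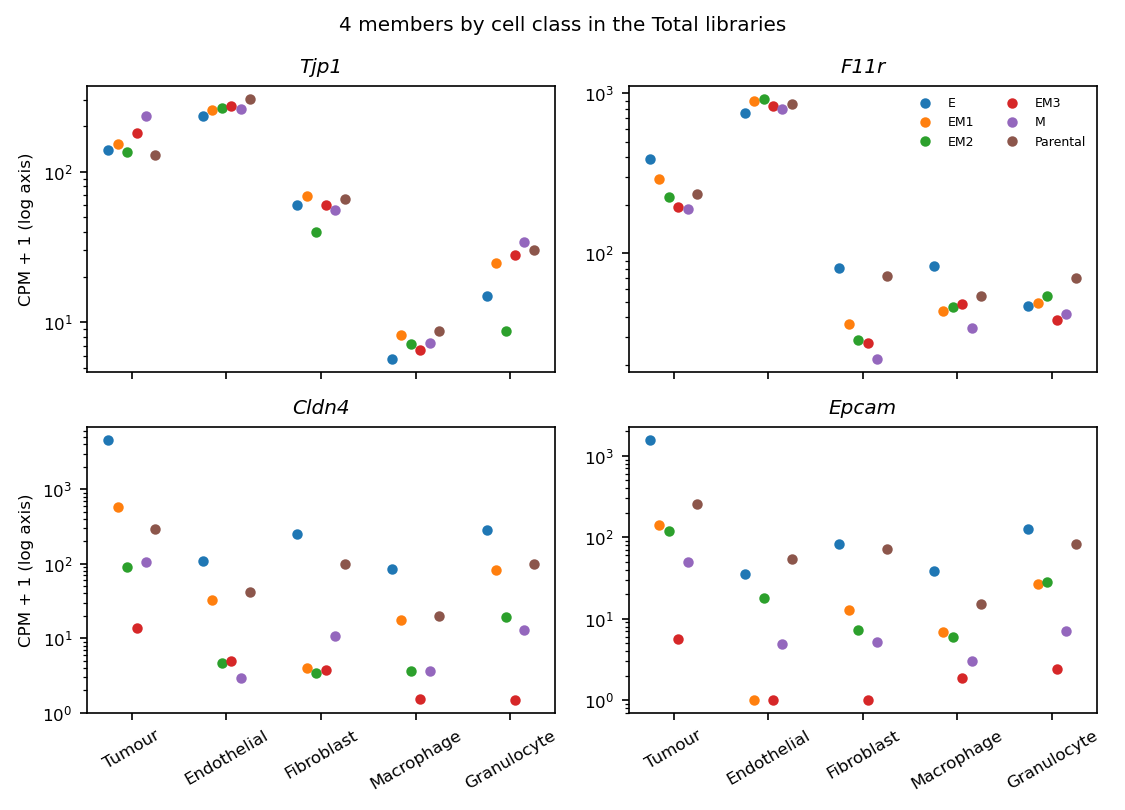
CPM + 1 on log axes of Tjp1, F11r, Cldn4 and Epcam in 5 cell classes (x axis) of the Total libraries, 1 point per tumour. Endothelial cells have the most Tjp1 and F11r in every tumour, while Cldn4 and Epcam are highest in the tumour cells of every tumour among these 5 classes. For Tjp1 in M the endothelial excess over tumour cells is within counting error.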

How the data were processed

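The authors deposited UMI counts per gene and cell for 12 libraries, with a table of each cell's UMI and gene counts, mitochondrial percent and annotation, per the file headers. Cell Ranger and mm10 are named in the submitters' processing notes, with no version. The labels' protocols name enzymatic digestion, a fixed-RNA kit and 3′ reagents. The Total libraries held 38499899 to 122055131 UMIs in 6709 to 13467 cells.

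Doublets were called with the Scrublet method (2 simulated pairs per cell, 6% expected, 2000 genes, 30 components, 1 score limit for all libraries), which marked 2132 of 115612 cells (1.84%). The limit was set after its values had been seen. Counts were summed over annotated tumour cells and scaled to CPM, with exact Poisson intervals for sums and exact Clopper-Pearson intervals for shares at 95%. Fold calls used log2(CPM + 10) at a limit of 1 over genes with a mean of at least 10 CPM, which understates differences of low genes. Fold calls and thinning were tested on simulated counts. TMM factors came from edgeR 4.0.16. A floor of 3 UMIs was used before a fold between cell groups was given. Named were all 9 genes, the 4 highest and 4 lowest of the other junction genes in M over E and EM3 over E, and the 10 nearest profiles; a few genes that these rules name are not reported here. The 9 genes, the lists and the motifs were chosen with earlier results of these data known. Lengths of the counted features are not given in the sources used here, so levels are compared between tumours and cell classes and not between genes.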

Additional observations from a re-analysis of the deposited data

How the results depend on the processing

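No paired analysis was possible because each group holds 1 tumour, and for the same reason no tumour could be left out in turn. Against Clone E, the count of the 9 genes past the fold was 7 or 8 under 8 of the 9 settings tried and 6 with a pseudocount of 50 CPM, and no gene past the fold turned its sign. With a pseudocount of 50 CPM, Crb3 was inside the limit in all 5 comparisons (−0.87 to −0.83). M over EM3 gave 1 gene with that pseudocount (Cldn4), and Epcam had 0.86. Parental over EM1 gave 2 genes with a pseudocount of 1 CPM (Ocln and Rab25) and 1 gene, Cldn4, under TMM scaling, under median-of-ratios scaling and without the marker-carrying cells, an alternative chosen after seeing the data. Ocln in EM2 over EM1 was inside the limit with a pseudocount of 50 CPM and with the mean over cells.

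Counts of all genes past the fold depended on the pseudocount and the filter. In the order EM1, EM2, EM3, M and parental over E, then M over EM3, EM2 over EM1 and parental over EM1, the counts were 673, 759, 780, 1065, 704, 341, 215 and 257. With a pseudocount of 1 CPM they were 1040, 1252, 1217, 1646, 1195, 687, 441 and 503, and with 50 CPM 224, 233, 254, 359, 208, 87, 68 and 92. With a mean of at least 50 CPM, which tests fewer genes, they were 303, 363, 381, 570, 345, 183, 97 and 135. TMM scaling gave 1264 for EM1 over E and 1402 for EM2 over E.

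The share of junction-rich cells moved with depth and with the number of genes asked for. In the order E, EM1, EM2, EM3, M and parental, thinning to 1000 UMIs gave 53.0%, 6.99%, 1.30%, 0.204%, 0.726% and 5.64%, thinning to 4000 UMIs 95.3%, 48.0%, 11.0%, 2.20%, 10.5% and 33.1%, and no thinning 92.1%, 75.1%, 54.2%, 14.9%, 41.4% and 68.5%. At least 2 genes gave 95.0%, 48.4%, 19.7%, 11.3%, 20.4% and 36.2%, and at least 4 genes 55.1%, 6.55%, 1.01%, 0%, 0.388% and 5.03%. At least 3 of the 7 genes other than Tjp1 and F11r gave 66.5%, 6.70%, 0.917%, 0%, 0.237% and 5.56%. Without the marker-carrying cells EM2 had 2.99%. Unthinned, a UMI of Cldn4 was found in 95.7%, 64.4%, 11.7%, 4.38%, 24.9% and 48.7% of cells in the same order. The Clone E tumour, with 785 tumour cells, sets the precision of every ratio against it, and the cause of these shifts was not tested beyond what each setting removes.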
